A study of Mus musculus with 6 samples.

Results

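The transcriptome described here is that of wild-type (WT) FLK1+ mesoderm, from mouse embryonic stem (ES) cells that had differentiated for 3.5 days as embryoid bodies (EBs). It rests on 3 RNA-seq libraries, WT replicates 1 to 3, of the 6 libraries in the series, and they were chosen by their WT label alone. The table listed 14005 genes for each library. The cells came from the J1 ES cell line, with an intact Scl (Tal1) gene and no other allele or agent named. FLK1+ cells were taken from the EBs with a FLK1 antibody and magnetic beads, so that Kdr, the gene of FLK1, is the one gene on which the cells were selected. The strain label was C57Bl/6 X Sv129 for replicates 1 and 2 and C57Bl/6 X Sv131 for replicate 3. The number in this label increases by 1 from sample to sample over part of the series. The titles of all 3 libraries name the J1 line, so that the label is not read as a difference in strain. All replicates were differentiations of 1 cell line, so that the spread given below is that of cultures and libraries and not of animals.

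FLK1 is a receptor for vascular endothelial growth factor (VEGF) that appears on mesoderm as it leaves the primitive streak. Blood and endothelium arise from FLK1+ mesoderm, and so do heart and other mesodermal tissues. SCL, the product of Tal1, is the basic helix-loop-helix factor that starts the blood programme. PDGFRα is carried by cells with cardiac and paraxial potential, MESP1 marks early cardiac mesoderm and Brachyury (T) marks the primitive streak.

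Values are CPM, the read count of a gene relative to the size of its library after scaling by the trimmed mean of M-values (TMM), and are given for WT replicates 1, 2 and 3 in that order. Per library, the listed genes held 38623641 to 40769209 counts, as worked out from the smallest step between values. A read in overlapping genes can add to more than 1 of these counts. A value of 3 reads corresponded to 0.0728 to 0.0784 CPM, which covers counting error only. CPM grows with gene length. Genes were therefore compared with each other in CPM per kb of exon, as the mean ± SD of the 3 libraries, and a percentile is the rank of this mean among all 14005 genes. The table appeared to count reads over whole gene spans on either strand. Of 1175 pairs in which 1 listed gene lay inside another, the outer gene had at least 99.9% of the CPM of the inner gene in 1161 (98.8%). This also held for 322 of 332 inner genes on the other strand that shared no exon base with the outer gene. A level can thus include reads of an overlapping gene. It can also include reads from the gene's own introns, whose length is not in the kb of exon. The part of such intron reads in CPM per kb was not tested. The share of overlapping genes is given for named genes where it could exceed 25%, as it could for 2545 genes in all.

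All 6 marker genes were listed in each WT library, and Kdr stood highest of them on both scales. Kdr had 868, 832 and 867 CPM. T had 203, 261 and 217 CPM. Etv2, an ETS factor that activates blood and endothelial genes, had 114, 128 and 138 CPM. These 3 genes differed little between libraries, with an SD of log2(CPM + 0.5) of 0.03, 0.19 and 0.14. Tal1 had 303, 182 and 306 CPM. Mesp1 had 30.5, 70.5 and 52.1 CPM. Pdgfra had 46.6, 121 and 63.4 CPM. Tal1 was lowest in replicate 2, the library in which Mesp1 and Pdgfra were highest, and the SDs of log2 for these 3 genes were 0.43, 0.61 and 0.69.

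Per length of exon, Kdr stood at 118 ± 2.81 CPM per kb (SD, n = 3) and T at 98.1 ± 13.2 CPM per kb. Etv2 was at 85.2 ± 7.91 CPM per kb and Tal1 at 60.2 ± 16.1 CPM per kb. Mesp1 was at 40.0 ± 15.7 CPM per kb and Pdgfra, lowest of the 6, at 11.4 ± 5.75 CPM per kb. The ratio of Kdr to Pdgfra per kb was 17.2, 6.39 and 12.7, and that of Tal1 to Mesp1 was 2.90, 0.753 and 1.71. Tal1 thus exceeded Mesp1 in replicates 1 and 3 and not in replicate 2. In bulk RNA, fewer cells of a type and less RNA per cell cannot be told apart.

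In the mm9 annotation Kdr lies on chromosome 5 from 76328852 to 76374483 (- strand) and Pdgfra on chromosome 5 from 75548316 to 75594229 (+ strand). Kit, a receptor tyrosine kinase of blood progenitors, lies between them on chromosome 5 from 75970941 to 76052747 (+ strand). Of these 3 receptor genes of 1 region, Kdr stood far above the other two, whose ranges per kb overlapped. Kit had 57.0, 27.5 and 57.9 CPM, or 8.14 ± 2.96 CPM per kb, and was lowest in replicate 2. Of the other markers, T lies on chromosome 17 from 8627288 to 8635361 (+ strand), Etv2 on chromosome 7 from 31418635 to 31421308 (- strand), Mesp1 on chromosome 7 from 86937127 to 86938674 (- strand) and Tal1 on chromosome 4 from 114729031 to 114744360 (+ strand).

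The DNA before the start sites of the marker genes is shown because the genes differ in its CpG content, which varied with level over all genes. The 100 bases before the annotated start are given from 5′ to 3′ from the RefSeq promoter windows of the GRCm38.p6 build, with each CG pair in capitals. They are Kdr at chr5:75978456-75978555 (- strand), T at chr17:8434323-8434422 (+ strand), Tal1 at chr4:115056326-115056425 (+ strand), Etv2 at chr7:30635853-30635952 (- strand), Mesp1 at chr7:79793591-79793690 (- strand) and Pdgfra at chr5:75152151-75152250 (+ strand). Tal1 has more than 1 window in the table and the one of the upstream start is shown.
Kdr: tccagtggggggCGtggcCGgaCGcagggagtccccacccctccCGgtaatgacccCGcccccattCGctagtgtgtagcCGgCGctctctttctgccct
T: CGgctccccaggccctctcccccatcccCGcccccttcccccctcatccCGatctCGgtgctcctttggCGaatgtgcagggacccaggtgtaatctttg
Tal1: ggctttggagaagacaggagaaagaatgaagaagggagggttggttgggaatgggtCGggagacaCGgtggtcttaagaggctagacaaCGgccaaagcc
Etv2: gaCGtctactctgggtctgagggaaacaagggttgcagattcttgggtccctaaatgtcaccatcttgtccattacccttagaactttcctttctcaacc
Mesp1: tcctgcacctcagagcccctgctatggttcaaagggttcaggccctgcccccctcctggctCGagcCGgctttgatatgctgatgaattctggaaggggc
Pdgfra: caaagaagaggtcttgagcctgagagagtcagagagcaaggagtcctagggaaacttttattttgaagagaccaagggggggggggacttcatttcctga
The stretches hold 8 CG pairs for Kdr, 5 for T, 3 for Tal1, 1 for Etv2, 2 for Mesp1 and 0 for Pdgfra. Over the whole window of 300 bases the ratio of observed to expected CpG was 0.689 for Kdr, 0.607 for T and 0.647 for Tal1. It was 0.266 for Etv2, 0.256 for Pdgfra and 0.174 for Mesp1. All 6 lay under the median of 0.773 over the 9607 listed genes with a window.

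**Figure D1:**
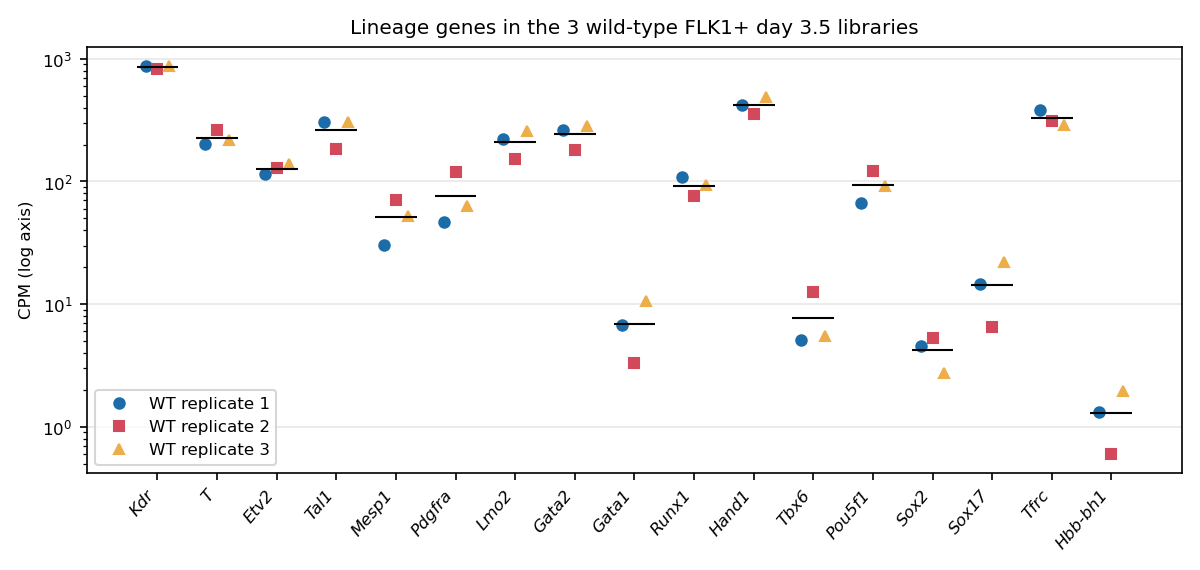
CPM of lineage genes (log axis) in the 3 WT libraries, with a horizontal line at the mean. Kdr stands above 800 CPM in each library and Hbb-bh1 below 2 CPM, and the squares of replicate 2 lie below the other symbols for Tal1, Lmo2, Gata2, Gata1, Runx1 and Sox17 and above them for T, Mesp1, Pdgfra, Tbx6, Pou5f1 and Sox2.

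Expression was spread over many genes. By the mean of the 3 libraries, 13939 genes (99.5%) had at least 1 CPM, 10193 at least 10 CPM, 2807 at least 100 CPM and 40 at least 1000 CPM. Whether a gene was listed was not decided by the WT libraries alone. Of the 14005 genes, 13991 reached 0.5 CPM in at least 3 of the 6 libraries of the series, those of the other genotype included, and a gene that was not listed can have a low level in the WT cells. The percentiles rank listed genes only. The 10 highest genes held 3.05% of all CPM, the 100 highest 11.8% and the 1000 highest 41.5%. The median gene had 31.3 CPM or 9.44 CPM per kb, and the gene at percentile 90 had 52.0 CPM per kb. Most listed genes were protein coding (12524). The 506 long intergenic RNAs had a median of 9.87 CPM and the 358 pseudogenes one of 5.17 CPM.

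The gene with the highest CPM of its own was Fn1, which encodes the matrix glycoprotein fibronectin, with 6252, 6718 and 7025 CPM. Hsp90ab1, a cytosolic chaperone, had 2716, 2758 and 3299.9 CPM. Ncl, the nucleolar protein nucleolin, had 2269, 2434 and 2256 CPM. Of the elongation factors of translation, Eef2 had 1952, 2072 and 2728 CPM and Eef1a1 1620.2, 1604 and 2260.3 CPM. Both, like Hsp90ab1, were highest in replicate 3. Actb, cytoplasmic actin, had 1739.9, 1904 and 1893 CPM. Peg10, an imprinted gene derived from a retrotransposon, had 1866, 2084 and 1562 CPM. Peg3, an imprinted zinc finger gene, had 1792, 2212 and 1417 CPM. The other 2 of the 10 highest are of doubtful meaning. Gm20388 had 7151, 6712 and 7439 CPM, but its annotated span covers 4.43 Mb of chromosome 8 with 64 other listed genes, whose CPM sum to 6643. Gm12913, a pseudogene, had 2268, 3113 and 149.9 CPM and was far lower in replicate 3.

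By CPM per kb the 10 highest genes were mostly short features. They were Gm12563, AC113316.1, AC115697.1, Gm12913, Gm11074, Gm20388, AY036118, Gm15662, Gm23935 and Mir675, from 7434 CPM per kb for Gm12563 to 1237 CPM per kb for Mir675. For Gm11074 and Mir675 overlapping genes could hold 114% and 57.2% of the value. A second ranking, of protein-coding genes of at least 500 bp with little overlap, was chosen after the values were seen. Ptma, a small acidic nuclear protein, led it with 1083 ± 50.3 CPM per kb, followed by Hsp90ab1 with 975 ± 109 CPM per kb. Rpl8, a ribosomal protein, had 845 ± 176 CPM per kb and Fn1 799 ± 46.6 CPM per kb. Rpl4, Eef1a1, Eef2, Actb, Rpl32 and the glycolytic enzyme gene Pkm completed the 10, down to 641 ± 102 CPM per kb for Pkm.

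Among gene lists, those of growth and biosynthesis stood highest. The 26 listed genes of translation factors and ribosome assembly had a median of 185 CPM per kb (percentile 98.5). Npm1, a nucleolar histone chaperone of this list, had 990.2, 1052 and 1109 CPM. Pabpc1, the cytoplasmic poly(A)-binding protein, had 1639, 1778 and 1390.5 CPM. The 24 listed chaperones had a median of 169.7 CPM per kb (percentile 98.2). Cct2, a subunit of the chaperonin that folds actin and tubulin, had 518, 551 and 581 CPM. Hspa5, the main chaperone of the endoplasmic reticulum, had 570, 574 and 602 CPM. Both differed little between libraries, with SDs of log2 of 0.08 and 0.04.

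Of the cytosolic ribosomal protein genes 81 of 84 were listed, with a median of 155 CPM per kb (percentile 97.9). Rplp0, of the ribosomal stalk, had 430.2, 373 and 594 CPM. Rpl8, the highest of the list, had 625, 657 and 903 CPM. The lowest, Rps15a, stood at 30.5 CPM per kb, and ribosomal protein genes have many processed pseudogenes with which reads can be shared. Replicate 3 was highest for 73 of the 81 ribosomal protein genes, against 39.6% of all genes. The same library was highest for 64 of 78 listed nuclear genes of the respiratory chain, which had a median of 57.4 CPM per kb (percentile 91.3). Atp5a1, of the ATP synthase, had 681, 714 and 902 CPM. Cox4i1, of cytochrome oxidase, had the highest level of that list, 232, 229.6 and 330.5 CPM. None of the 15 mitochondrially encoded genes of the lists was among the listed genes.

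Cytoskeletal and glycolytic genes were also high. The 28 listed cytoskeletal genes had a median of 85.6 CPM per kb (percentile 94.9), from 689 CPM per kb for Actb to 3.94 CPM per kb for the neuronal tubulin gene Tubb3. Vim, encoding the mesenchymal intermediate filament vimentin, had 580.5, 401 and 749.9 CPM and was lowest in replicate 2. The 21 genes of glycolysis and glucose uptake had a median of 63.4 CPM per kb (percentile 92.4). Ldha, lactate dehydrogenase, had 749, 796 and 973 CPM. Gapdh had 561, 502 and 815 CPM. Both were highest in replicate 3, as were 15 of the 21 genes, against 39.6% of all genes. Aldoc, the brain form of aldolase, was lowest of the list with 4.77, 3.48 and 6.02 CPM.

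**Figure D2:**
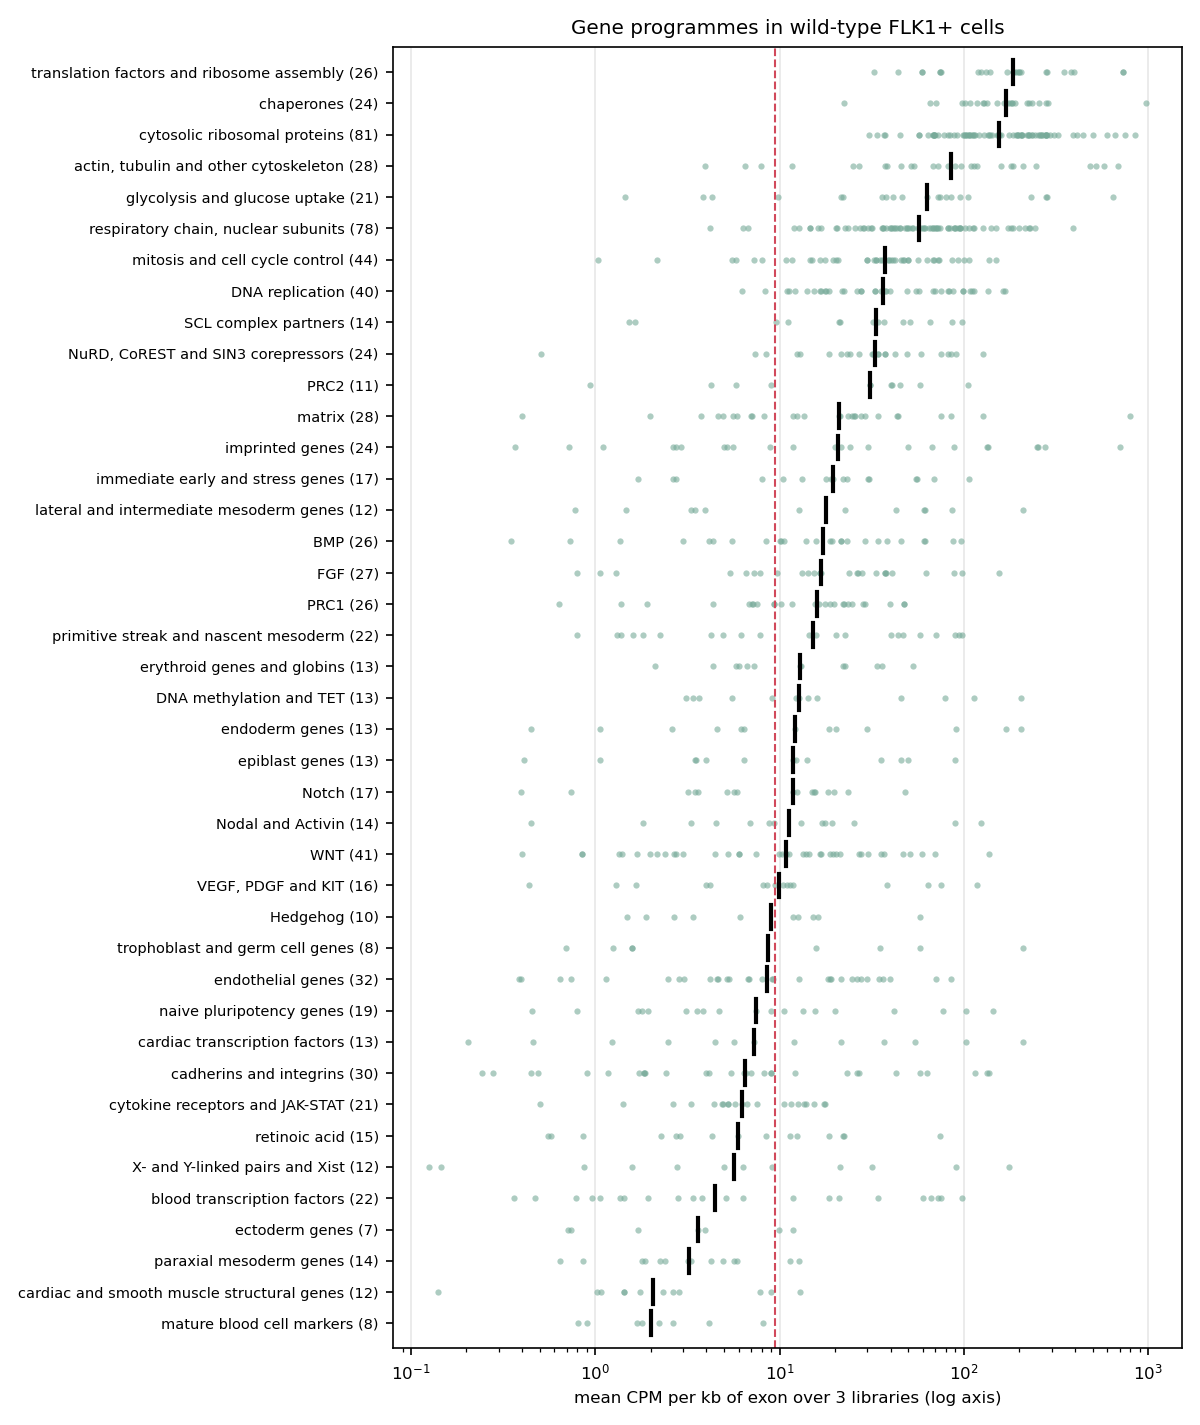
Mean CPM per kb of exon over the 3 WT libraries (log axis) for the listed members of each gene list, with 1 point a gene, a black bar at the list's median and the number of listed members in brackets; the dashed line is the median of all genes, 9.44 CPM per kb. Translation, chaperone and ribosomal lists lie at the top and mature blood and cardiac structural genes near the bottom.

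Genes of proliferation stood well above the median gene. All 40 DNA replication genes of the list were present, with a median of 36.5 CPM per kb (percentile 84.4). Mcm5, of the replicative helicase, had 528, 528 and 662 CPM. Pcna, the sliding clamp, had 243, 254 and 302 CPM. Rrm2, of ribonucleotide reductase, had 287, 295 and 310.5 CPM. Each was highest in replicate 3, by a small margin for Rrm2. Of the genes of mitosis and cell cycle control 44 of 48 were listed, with a median of 37.4 CPM per kb (percentile 84.9). Top2a, topoisomerase IIα, had 660.1, 698 and 647 CPM. Ccnd1, cyclin D1, had 381, 385 and 387 CPM and was nearly equal in the 3 libraries. Of the inhibitors of cyclin-dependent kinases, Cdkn1a had 36.7, 30.8 and 43.6 CPM, whereas Cdkn2a, Cdkn2b, Cdkn2c and Cdkn2d were not among the listed genes.

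Genes of the primitive streak stood at uneven levels. Of them 22 of 23 were listed, and 13 had a mean of at least 10 CPM. The listed genes had a median of 15.2 CPM per kb (percentile 63.4). The percentile of the list within replicates 1, 2 and 3 was 43.1, 67.7 and 55.3. Mixl1, a homeobox factor of the streak and second to T, had 181, 228 and 235 CPM. Evx1, a homeobox factor of the posterior streak, had 117, 146 and 139 CPM. Eomes, a T-box factor of the early streak, had 154, 363 and 206 CPM. Replicate 2 stood apart for Eomes but not for Evx1 or Mixl1. Tdgf1, the Nodal co-receptor Cripto, had 75.03, 322 and 119.8 CPM. Lhx1, a homeobox factor of anterior and lateral mesoderm, had 28.7, 216 and 36.5 CPM. Both were far higher in replicate 2 than in either other library. Tbx6, a regulator of paraxial mesoderm, had 5.07, 12.5 and 5.49 CPM. Fgf4, a ligand of the early embryo, was lowest with 2.06, 2.38 and 2.77 CPM.

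Blood transcription factors ranged widely. Of the blood transcription factor genes 22 of 24 were listed, with a median of 4.46 CPM per kb (percentile 31.5), and within replicates 1, 2 and 3 the percentile was 35.5, 21.1 and 39.3. Lmo2, the LIM-domain bridge of the SCL complex, led them with 222, 152 and 259 CPM. Gata2, the GATA factor of early progenitors, had 265, 180.1 and 284 CPM. Zfpm1, encoding the GATA cofactor FOG1, had 257, 205 and 301 CPM. Runx1, the factor needed for definitive blood, had 109, 76.0 and 93.0 CPM, at percentile 56.7. Each of these 4 was lowest in replicate 2, as was Tal1. Lyl1, the closest relative of SCL, had 12.1, 5.83 and 16.5 CPM, and the per kb ratio of Tal1 to Lyl1 was 10.3, 12.9 and 7.62. Gata1, the erythroid GATA factor, had 6.75, 3.29 and 10.5 CPM, at percentile 22.6. Spi1, encoding the myeloid factor PU.1, had 3.81, 2.90 and 4.83 CPM. These 3 genes also had their lowest value in replicate 2. Gfi1b, a repressor that works in SCL complexes, had 6.40, 2.93 and 11.6 CPM, at percentile 28.5. Gfi1, a repressor of blood stem and myeloid cells, was lowest with 1.23, 0.549 and 1.75 CPM. Myb had 24.9, 12.0 and 21.1 CPM, of which overlapping genes could hold 45.1%. Klf1 and Cebpa, later erythroid and myeloid regulators, were not among the listed genes.

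All 14 genes of the proteins that work with SCL on DNA were listed, with a median of 33.2 CPM per kb (percentile 82.6). The E-proteins pair with SCL. Of their genes, Tcf3 had 251, 247 and 293 CPM. Tcf12 had 175, 203 and 158 CPM. Tcf4 had 125, 136 and 89.96 CPM. Tcf12 and Tcf4 were lowest in replicate 3, and none of these E-protein genes was far lower in replicate 2. Ldb1, which joins LMO2-bound complexes, had 181, 161 and 209 CPM. Cbfa2t3, encoding the corepressor ETO2, had 131, 58.0 and 112 CPM and was lowest in replicate 2. The SD of log2 was 0.14 for Tcf3 and 0.19 for Ldb1, against 0.39 for Lmo2, 0.43 for Tal1 and 0.62 for Cbfa2t3. The ratio of Lmo2 to Tal1 per kb was 1.48, 1.69 and 1.71.

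Endothelial genes ranged widely, with Etv2 at percentile 94.9 as the highest of them. Of them 32 of 33 were listed, with a median of 8.58 CPM per kb (percentile 47.4), and within replicates 1, 2 and 3 the percentile was 45.7, 34.3 and 57.2. Fli1, an ETS factor of blood and endothelium, had 145, 67.5 and 109 CPM. Cdh5, encoding VE-cadherin, had 111, 57.2 and 146 CPM. Tie1, an orphan receptor of endothelium, had 41.9, 22.9 and 71.1 CPM and its relative Tek, the angiopoietin receptor, 37.3, 17.8 and 41.3 CPM. Replicate 2 was lowest for each of these. Pecam1, an adhesion molecule of formed endothelium, had 12.6, 7.84 and 16.4 CPM. Vwf, a clotting factor made by mature endothelium, was lowest with 7.90, 4.08 and 6.56 CPM. Replicate 2 was the lowest library for 28 of 32 listed endothelial genes, against 35.5% of all genes, and for 18 of 22 listed blood transcription factor genes.

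Genes of differentiated blood cells were few and low. Of the erythroid and globin genes 13 of 27 were listed. They were led by Tfrc, the transferrin receptor gene that all growing cells use, with 385, 311 and 291 CPM. Epor, the erythropoietin receptor gene, had 10.9, 7.11 and 18.5 CPM. The only globin gene listed was the embryonic Hbb-bh1, with 1.33, 0.601 and 1.94 CPM. Epor and Hbb-bh1 were lowest in replicate 2 and Tfrc was not. Of the mature blood cell markers 8 of 22 were listed, with a median of 2.01 CPM per kb (percentile 17.3). Itga2b, encoding the CD41 integrin of early blood progenitors, had 24.8, 12.3 and 30.7 CPM. Mpo, of neutrophil granules, had 2.99, 1.23 and 4.10 CPM. Ptprc, encoding the leukocyte antigen CD45, and the platelet gene Pf4 were not among the listed genes.

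Regulators of the lateral plate had higher levels than those of paraxial mesoderm. Of the lateral and intermediate mesoderm genes 12 of 19 were listed, with a median of 17.8 CPM per kb (percentile 66.5), and the percentile of the list within replicates 1, 2 and 3 was 50.4, 73.3 and 53.0. Hand1, a basic helix-loop-helix factor of lateral and extraembryonic mesoderm, had 417, 354 and 487 CPM, at percentile 98.8. Its relative Hand2 had 11.4, 12.9 and 13.5 CPM, so that the ratio of Hand1 to Hand2 per kb was 40.9, 30.6 and 40.5. Foxf1, a forkhead factor of the lateral plate, had 71.0, 73.4 and 81.6 CPM. Bmp4, a ligand that ventralizes mesoderm, had 134, 135 and 139 CPM. These genes differed little between libraries. Snai2, a zinc finger factor of migrating cells, was lowest with 1.71, 1.31 and 1.70 CPM. Pax2 and Osr1, of the intermediate mesoderm, were not among the listed genes.

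Of the paraxial mesoderm genes 14 of 21 were listed, with a median of 3.24 CPM per kb (percentile 25.3). Dll1, the Notch ligand of the presomitic mesoderm, had 4.94, 60.2 and 6.90 CPM. Foxc2, a forkhead factor, had 4.19, 6.87 and 3.67 CPM. Its relative Foxc1 was lowest with 1.204, 5.64 and 0.826 CPM. All 3 were highest in replicate 2, and Dll1 about as low in replicate 1 as in replicate 3. Replicate 2 was highest for 12 of 14 listed paraxial genes and for 16 of 22 listed primitive streak genes, against 36.7% of all genes. The ratio of Tal1 to Tbx6 per kb was 24.7, 6.01 and 22.9. Meox1, of formed somites, was not among the listed genes.

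Of the cardiac transcription factor genes 13 of 18 were listed, with a median of 7.22 CPM per kb (percentile 43.0). After Hand1 the highest was Tbx3, with 572, 592 and 497 CPM. Gata4 had 187, 272 and 177 CPM. Gata6 had 97.0, 156 and 99.1 CPM. Both GATA genes were highest in replicate 2. Tbx20 had 115, 95.6 and 79.9 CPM. Nkx2-5, a homeobox factor of cardiac progenitors, had 3.81, 2.46 and 5.12 CPM. Isl1, a factor of the second heart field, had 2.71, 4.13 and 2.53 CPM. Both were at a few CPM. Myocd, the cofactor of the smooth and cardiac muscle programme, had 1.51, 1.49 and 1.04 CPM. Tbx5 was not among the listed genes.

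Of the cardiac and smooth muscle structural genes 12 of 21 were listed, with a median of 2.05 CPM per kb (percentile 17.5). Myl7, an atrial myosin light chain, had 3.36, 8.10 and 4.44 CPM and was highest in replicate 2. Acta2, smooth muscle actin, had 2.18, 2.46 and 3.04 CPM. Ryr2, the cardiac calcium release channel, had 3.24, 3.32 and 1.14 CPM. Tagln, a smooth muscle actin-binding protein and highest of the list, stood at 13.0 ± 3.62 CPM per kb. Tnnt2 and Myh6, of the heart sarcomere, were not among the listed genes.

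Within transcription factor families the order of most neighbours was not resolved. Over the GATA, ETS, SOX, T-box and HOX and CDX genes, the ranges of the 3 libraries overlapped for 45 of 58 pairs of genes that followed each other in CPM per kb. Gata2 led the GATA genes at 72.5 ± 16.5 CPM per kb and Gata4 followed at 54.2 ± 13.4 CPM per kb. Gata6 stood at 36.8 ± 10.5 CPM per kb and Gata3 at 35.1 ± 3.75 CPM per kb, of which overlapping genes could hold 49.4%. Each of these ranges overlapped the next, and Gata2 was above Gata4 in replicates 1 and 3 but below it in replicate 2. Gata1 lay below them all at 2.81 ± 1.48 CPM per kb. Gata5 was not among the listed genes.

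Etv2 led the 21 listed ETS genes, and its range did not overlap that of the next, Erf, a repressor, at 37.0 ± 3.06 CPM per kb. Fli1 was at 34.5 ± 12.5 CPM per kb, Etv5 at 26.6 ± 8.83 CPM per kb and Ets1 at 24.6 ± 4.84 CPM per kb. From Erf through these to Ets2, Elf2, Gabpa and Etv6 each range overlapped the next. Erg, another endothelial ETS factor, stood far lower at 4.18 ± 1.33 CPM per kb, and the ratio of Etv2 to Erg was 18.4, 30.1 and 16.8. Spi1 was the lowest ETS gene at 1.43 ± 0.358 CPM per kb.

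Among T-box genes, Tbx3 at 103 ± 9.32 CPM per kb and T at 98.1 ± 13.2 CPM per kb had overlapping ranges. Eomes followed at 58.0 ± 26.3 CPM per kb and Tbx20 at 21.6 ± 3.96 CPM per kb, in ranges that overlapped neither each other nor those above. The ranges of Eomes and T nearly met, at 87.47 CPM per kb for Eomes in replicate 2 and 87.64 CPM per kb for T in replicate 1. Tbx6 was at 4.26 ± 2.31 CPM per kb, and Tbx4, a factor of hindlimb and allantois, was lowest at 1.46 ± 1.03 CPM per kb. Tbx4 had 8.13, 1.202 and 5.61 CPM and was thus lowest in replicate 2, where Tbx6 was highest.

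Of the SOX genes, Sox11 stood at 47.9 ± 6.82 CPM per kb, Sox4 at 35.6 ± 12.3 CPM per kb and Sox7 at 29.9 ± 11.2 CPM per kb. The ranges of Sox11 and Sox4 overlapped, as did those of Sox4 and Sox7, and those of Sox11 and Sox7 did not. Overlapping genes could hold 69.4% of the Sox4 value. The endothelial factor Sox18 was at 9.11 ± 4.82 CPM per kb, and Sox17, of endoderm and endothelium, at 4.57 ± 2.46 CPM per kb. Sox2, of pluripotent and neural cells, was at 1.71 ± 0.543 CPM per kb. HOX and CDX genes, which set position along the body axis, were near the lower end, with 19 of 42 listed and a median of 1.53 CPM per kb (percentile 13.6). Cdx2, a caudal factor, led them with 43.6, 18.3 and 45.4 CPM. Hoxb1 followed with 13.9, 21.5 and 15.3 CPM. Replicate 2 was lowest for 16 of 19 of them, against 35.5% of all genes, and highest for Hoxb1 alone, against 36.7%. Of the 19 genes, only 4 had a mean of at least 10 CPM. For 7 of them overlapping genes could hold over 25% of the value, so that genes of the list can share reads. Hoxd4 was lowest per kb with 1.03, 0.183 and 0.680 CPM, and its neighbours could hold 89.7% of that value.

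**Figure D3:**
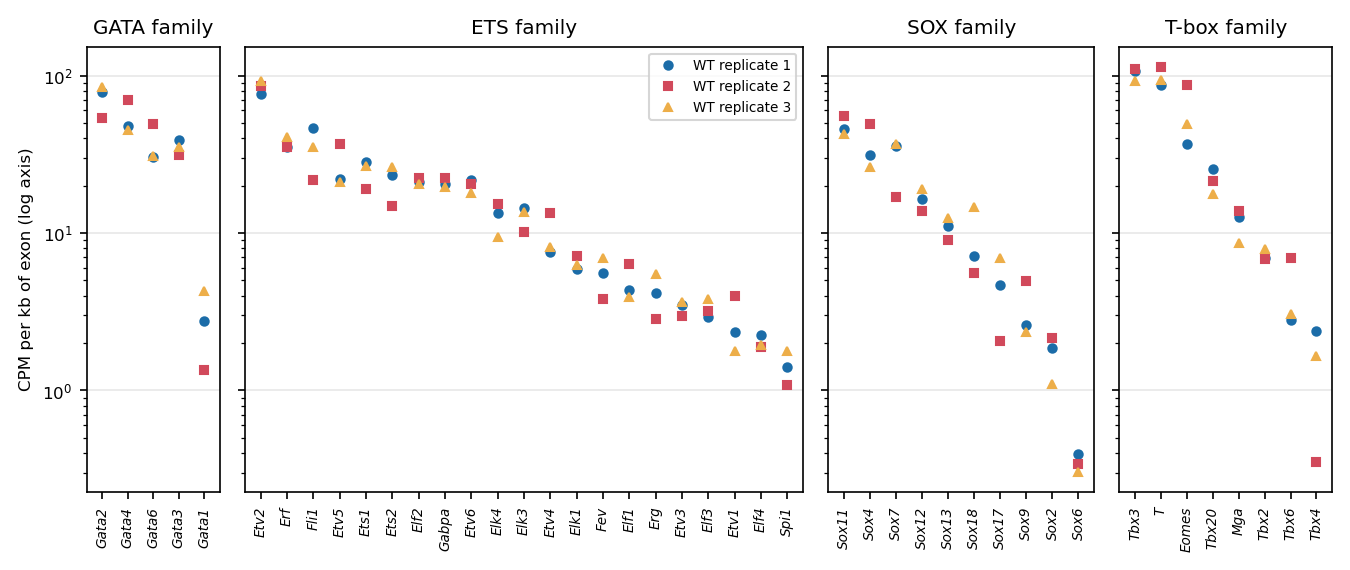
CPM per kb of exon (log axis) of the listed GATA, ETS, SOX and T-box genes in each WT library, ordered by the mean within each family. Etv2 stands apart at the head of the ETS genes and Gata1 at the foot of the GATA genes, while most neighbours overlap.

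Genes of pluripotent cells were present at graded levels. Of the naive pluripotency genes 19 of 24 were listed, with a median of 7.46 CPM per kb (percentile 43.9). Lin28a, an RNA-binding protein that blocks let-7 maturation, was highest with 485, 591 and 446 CPM. Pou5f1, encoding OCT4, had 67.1, 122 and 92.3 CPM. Nanog had 7.50, 16.0 and 8.06 CPM. Sox2, the partner of OCT4 in ES cells, had 4.59, 5.31 and 2.72 CPM, and the ratio of Pou5f1 to Sox2 per kb was 15.9, 25.03 and 37.0. All 3 factors were highest in replicate 2. Zfp42, a marker of naive ES cells, had 6.82, 7.16 and 6.80 CPM. Esrrb, an orphan receptor of the naive state, had 2.56, 2.98 and 2.72 CPM. The last 2 genes were nearly equal in the 3 libraries.

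Of the epiblast genes 13 of 17 were listed, with a median of 11.9 CPM per kb (percentile 56.6). Fgf5, a ligand that marks the epiblast, had 1.58, 4.83 and 1.55 CPM. Otx2, a homeobox factor of anterior epiblast, had 3.71, 26.9 and 5.15 CPM. Replicate 2 was highest for both and for 11 of 13 of the list, against 36.7% of all genes. Of the ectoderm genes 7 of 26 were listed, with a median of 3.59 CPM per kb (percentile 27.3). Zic2, a zinc finger factor that is also used in gastrulation, led them with 31.8, 80.1 and 37.0 CPM. Nes, an intermediate filament of progenitors, had 60.4, 79.4 and 51.8 CPM. Both were again highest in replicate 2. Sox1, Tfap2a and Trp63, of neural and surface ectoderm, were not among the listed genes.

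Of the endoderm genes 13 of 26 were listed, with a median of 12.1 CPM per kb (percentile 57.3). The highest was Krt8, a keratin of simple epithelia, with 336, 345 and 424 CPM. Sox17 had 14.7, 6.53 and 22.0 CPM. Cer1, a secreted inhibitor made by anterior endoderm, had 0.151, 1.80 and 0.389 CPM. Sox17 was lowest and Cer1 highest in replicate 2. The defining endoderm genes Foxa2, Foxa1, Hnf4a and Afp were not among the listed genes. Of the trophoblast and germ cell genes 8 of 18 were listed, with a median of 8.70 CPM per kb (percentile 39.3). Hand1 and Eomes, which mesoderm also expresses, were at their head. Gata3, of which overlapping genes could hold 49.4%, followed at 35.1 CPM per kb and Cdx2 at 15.8 CPM per kb. Tfap2c had 5.24, 7.32 and 4.95 CPM. Prdm1, a regulator of primordial germ cells, had 3.54, 3.79 and 4.15 CPM.

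Signalling genes were described from ligands to targets. Of the VEGF, PDGF and KIT genes 16 of 18 were listed, with a median of 9.94 CPM per kb (percentile 51.4). The ligand gene Vegfa had 52.5, 39.9 and 49.9 CPM. Flt1, the decoy receptor of VEGF, had 168, 114 and 128 CPM, so that the ratio of Kdr to Flt1 per kb was 8.24, 11.6 and 10.8. Flt4, the receptor of VEGFC, had 70.7, 56.1 and 85.1 CPM. Flt1 and Flt4 were lowest in replicate 2, where Kdr was only slightly lower. Pdgfc, a ligand of PDGFRα, was lowest with 2.58, 1.75 and 2.33 CPM.

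BMP signals pattern ventral and posterior mesoderm. Of the genes of the pathway 26 of 28 were listed, with a median of 17.2 CPM per kb (percentile 66.7). The ligand gene Bmp4 stood at 61.1 ± 1.23 CPM per kb and the receptor gene Bmpr1a at 21.6 ± 2.42 CPM per kb. Smad1, a transducer, had 174, 267 and 159 CPM. Smad5, its relative, had 76.4, 86.9 and 71.4 CPM. Id3, a target that inhibits basic helix-loop-helix factors and the highest gene of the list, had 174, 128 and 215 CPM. Id1 had 104, 74.0 and 127 CPM. Id3 and Id1 were lowest in replicate 2, where Smad1 and Smad5 were highest. Bmpr1b, another receptor gene, was lowest with 2.01, 2.85 and 1.38 CPM. The antagonist gene Chrd was not among the listed genes.

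Nodal and Activin signals induce mesendoderm. Of their genes 14 of 19 were listed, with a median of 11.2 CPM per kb (percentile 54.6). The ligand gene Nodal had 2.76, 6.87 and 1.77 CPM. The receptor gene Acvr2b had 48.4, 49.2 and 36.4 CPM. Smad2, the transducer, had 63.7, 63.6 and 52.9 CPM. Foxh1, its DNA-binding partner and highest of the list, had 138, 170.4 and 174 CPM. Lefty2, an inhibitor that is itself a target of the pathway, had 2.06, 18.8 and 5.15 CPM. Nodal and Lefty2 were highest in replicate 2, whereas Foxh1 and Smad2 were not.

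WNT signals maintain the posterior streak. Of the pathway's genes 41 of 45 were listed, with a median of 10.9 CPM per kb (percentile 54.1). The ligand gene Wnt3 had 49.9, 75.9 and 60.8 CPM. Wnt5a, a ligand of the non-canonical branch, had 73.7, 115 and 66.8 CPM. The receptor gene Fzd7 had 165, 294 and 212 CPM. All 3 were highest in replicate 2. Ctnnb1, encoding β-catenin, led the list with 630.4, 665 and 802 CPM. Lef1, the nuclear partner of β-catenin, had 177, 228 and 144 CPM. Axin2, a feedback target, had 101, 83.0 and 92.6 CPM and was lowest in replicate 2. Rnf43, a membrane ubiquitin ligase that removes the receptors, was lowest of the list with 2.46, 3.53 and 1.87 CPM.

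FGF signals support the exit of mesoderm from the streak. Of the pathway's genes 27 of 29 were listed, with a median of 16.9 CPM per kb (percentile 66.3). The ligand gene Fgf8 had 5.52, 19.5 and 6.56 CPM. Fgf3, the highest ligand gene of the list, had 220.2, 140 and 257 CPM. Fgf8 was highest and Fgf3 lowest in replicate 2. Fgfr1 had 279, 332 and 291 CPM. For Fgfr2, with 1239.5, 1242 and 1139 CPM, genes within its annotated span could hold the whole value (122%), so that no order between these receptors can be read. Of the feedback inhibitors, Dusp6, a phosphatase of ERK, had 58.6, 72.2 and 69.6 CPM. Spry4 had 23.6, 39.9 and 27.0 CPM.

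Of the Notch genes 17 of 20 were listed, with a median of 11.8 CPM per kb (percentile 56.5). The ligand gene Jag1 had 21.2, 21.8 and 19.98 CPM. Dll4, an endothelial ligand, was lowest with 1.38, 1.31 and 1.89 CPM. The receptor gene Notch1 had 182, 157 and 166 CPM. Rbpj, the nuclear effector, had 73.5, 77.3 and 66.1 CPM. Hes1, a target and the highest of the list, had 79.8, 122 and 90.6 CPM. Hey1, another target, had 33.5, 50.9 and 36.5 CPM. Both targets were highest in replicate 2, while Notch1 and Jag1 differed less between libraries.

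Of the retinoic acid genes 15 of 18 were listed, with a median of 5.95 CPM per kb (percentile 38.4). Aldh1a2, which makes retinoic acid, had 1.61, 2.06 and 2.14 CPM. Cyp26a1, which degrades it, had 118, 165 and 111 CPM and was the highest of the list. The receptor gene Rara had 105, 95.2 and 105 CPM. Rarg had 49.4, 51.5 and 51.5 CPM. Of the Hedgehog genes 10 of 14 were listed, with a median of 8.999 CPM per kb (percentile 47.9), and the ligand genes Shh and Ihh were not among the listed genes. The receptor gene Ptch1 had 76.5, 88.8 and 68.7 CPM. Smo, the transducer, had 207, 209.9 and 239 CPM. Of the effectors, Gli3 had 128, 146 and 88.9 CPM and Gli2 33.9, 55.8 and 36.7 CPM. Gli1, a target of the active pathway, was lowest with 5.02, 6.53 and 5.39 CPM.

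Of the cytokine receptor and JAK-STAT genes 21 of 25 were listed, with a median of 6.22 CPM per kb (percentile 39.5). Il6st, the receptor chain shared by LIF and related cytokines, had 95.03, 87.5 and 90.9 CPM. The kinase gene Jak1 led the list with 131, 121 and 129 CPM. Stat3 had 109, 105 and 116 CPM. These 3 differed little between libraries.

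Corepressor genes stood high as a group. All 24 genes of the NuRD, CoREST and SIN3 list were present, with a median of 33.2 CPM per kb (percentile 82.6). Chd4, the NuRD remodeller, was highest with 1040.1, 1092 and 907 CPM. Kdm1a, encoding the LSD1 demethylase of CoREST, had 219.6, 235 and 201 CPM. Of the deacetylases, Hdac1 had 127, 127 and 131 CPM and Hdac2 117, 123 and 122 CPM. Both were nearly equal in the 3 libraries, with SDs of log2 of 0.03 and 0.04. Zfpm2, encoding the GATA cofactor FOG2, was lowest at 0.508 CPM per kb.

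Polycomb repressive complex PRC2 methylates histone H3 at lysine 27. All 11 genes of its list were present, with a median of 31.0 CPM per kb (percentile 81.2). The methyltransferase gene Ezh2 had 204, 209 and 161 CPM. Its relative Ezh1 had 48.7, 33.9 and 47.7 CPM, and the ratio of Ezh2 to Ezh1 per kb was 5.01, 7.42 and 4.05. Eed, which binds the mark that PRC2 makes, had 91.5, 90.1 and 86.9 CPM. Jarid2, which helps to bring PRC2 to its sites, had 401, 625 and 168 CPM. It had the largest spread of the list, with an SD of log2 of 0.96 against 0.04 for Eed.

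PRC1, which ubiquitinates histone H2A, had all 26 genes of its list present and a median of 15.9 CPM per kb (percentile 64.8). Of the catalytic subunits, Rnf2 had 116, 121 and 125 CPM. Ring1 had 19.6, 23.8 and 25.5 CPM, and the ratio of Rnf2 to Ring1 per kb was 6.35, 5.43 and 5.26. Rybp, a subunit of non-canonical PRC1 and highest of the list, had 227, 203 and 201 CPM. Pcgf5, another non-canonical subunit, had 50.2, 28.7 and 42.7 CPM and was lowest in replicate 2. The canonical subunit gene Bmi1 had 27.8, 28.4 and 25.5 CPM. Cbx2, a chromodomain subunit of canonical PRC1, had 72.5, 75.6 and 92.0 CPM. Cbx8, its relative, was lowest with 2.11, 2.01 and 2.87 CPM.

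Of the DNA methylation and TET genes 13 of 14 were listed, with a median of 12.8 CPM per kb (percentile 58.8). Dnmt1, the maintenance enzyme, had 409, 356 and 477 CPM. Uhrf1, its partner at replicated DNA, had 479, 462 and 501 CPM. The de novo enzyme gene Dnmt3b stood at 45.4 ± 2.95 CPM per kb and Dnmt3a at 12.3 ± 0.729 CPM per kb, with a ratio of 3.40, 4.18 and 3.51. Tet1, an oxidase of methylated cytosine, had 95.5, 99.3 and 49.4 CPM and was lowest in replicate 3. Tet2 had 34.1, 27.7 and 23.6 CPM.

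Of the matrix genes 28 of 31 were listed, with a median of 21.1 CPM per kb (percentile 72.3) and Fn1 at their head. The basement membrane collagen gene Col4a1 had 527, 506 and 499 CPM. Its partner Col4a2 had 306, 264 and 299 CPM. The laminin gene Lamb1 had 208, 207 and 217 CPM. All 3 differed little between libraries. Sparc, a collagen-binding protein, had 275, 253 and 330.5 CPM. Tnc, tenascin C, was lowest with 2.46, 3.27 and 3.35 CPM. Of the cadherin and integrin genes 30 of 32 were listed, with a median of 6.51 CPM per kb (percentile 40.7). Itgb1 and Itga5 encode the fibronectin receptor. Itgb1 had 466, 520.3 and 417 CPM and Itga5 90.4, 109 and 107 CPM.

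Of the cadherins, Cdh2 (N-cadherin) had 284, 495 and 261 CPM. Cdh11, a mesenchymal cadherin, had 239, 315 and 244 CPM. Cdh1 (E-cadherin), of epithelia and ES cells, had 15.5, 26.1 and 13.2 CPM. The ratio of Cdh2 to Cdh1 per kb was 10.4, 10.7 and 11.2, nearly the same in each library. That of Cdh2 to Cdh5, the endothelial cadherin, was 1.26, 4.27 and 0.886, and was above 1 in replicates 1 and 2 and below 1 in replicate 3.

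Over all genes the libraries resembled each other closely. The correlation of log2(CPM + 0.5) across the 14005 genes was 0.988 between replicates 1 and 2, 0.983 between 1 and 3 and 0.971 between 2 and 3, as a description, since genes are not independent replicates. For the 10193 genes whose mean reached 10 CPM, the SD of log2 over the 3 libraries had a median of 0.16, with the middle 90% of genes between 0.0363 and 0.445. Counting error would give a median SD of 0.0318. An SD above 0.5 was found for 355 of these genes (3.48%). The library farthest from the gene's mean was replicate 2 for 186 of them, replicate 3 for 155 and replicate 1 for 14, which is 52.4%, 43.7% and 3.94%. Over all 10193 genes the shares were 30.5%, 53.1% and 16.5%, so that replicate 2 was farthest more often, and replicates 3 and 1 less often, among the genes of large spread than among all. For replicate 3 the value was low in 143 of its 155 genes. For replicate 2 it was high in 88 genes and low in 98.

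The 10 genes with the smallest spread included Hcfc1, a cofactor of transcription, with 568, 570.2 and 570.2 CPM. Abce1, a ribosome recycling factor, had 490.5, 492 and 493 CPM. Others of the 10 were 1190002N15Rik, Myo9b, Tcp11l1, Iqsec1, Gpc2, Nipsnap1 and Kifap3, of which Tcp11l1 could owe 59.0% of its value to an overlapping gene. Their SDs ran from 0.00222 for 1190002N15Rik to 0.00528 for Kifap3. None of the lineage genes named above was among them.

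Replicate 2 differed from the other two libraries by lineage. The difference is given as the median, over the members of a list, of log2(CPM + 0.5) minus the gene's own mean, in replicates 1, 2 and 3. It was 0.08, -0.51 and 0.41 for endothelial genes, 0.13, -0.39 and 0.25 for blood transcription factors and 0.39, -0.77 and 0.27 for HOX and CDX genes. It was -0.37, 0.54 and -0.03 for primitive streak genes, -0.47, 0.71 and -0.17 for paraxial genes and -0.19, 0.57 and -0.36 for epiblast genes. Replicate 2 thus had lower levels of blood, endothelial and HOX genes and higher levels of streak, paraxial and epiblast genes. Replicates 1 and 3 also differed from each other in some lists. Replicate 3 was highest for 26 of 32 listed endothelial genes, replicate 1 for 4 and replicate 2 for 2. Replicate 3 was also highest for all 8 listed mature blood cell markers, against 39.6% of all genes. For primitive streak genes the median was lower in replicate 1 (-0.37) than in replicate 3 (-0.03). Lateral mesoderm genes (-0.05, -0.07 and 0.11) and cardiac transcription factors (-0.02, 0.03 and -0.15) differed less. Of the endothelial genes whose mean reached 10 CPM, 14 of 25 had an SD of log2 above 0.5, and of the primitive streak genes 8 of 13, beside the 3.48% of all genes. The summed counts on the listed genes were close, with 38623641 in replicate 2 against 39713877 and 40769209.

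**Figure D4:**
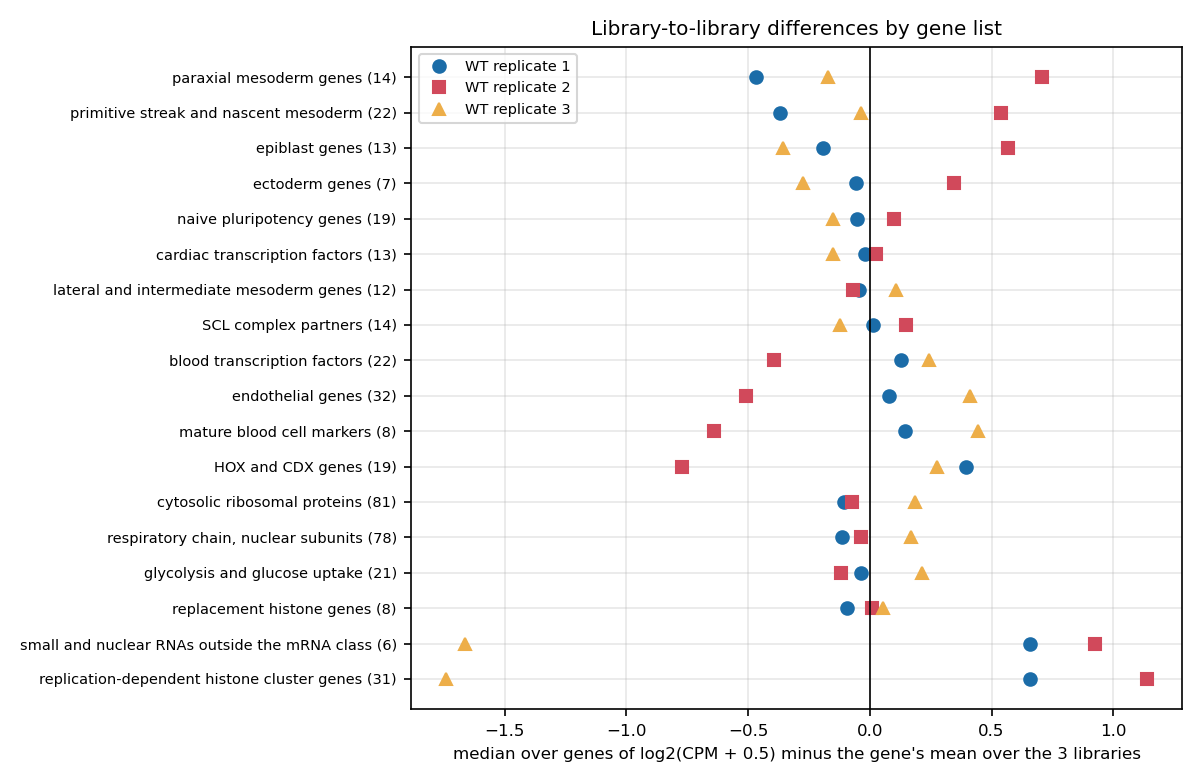
Median over the listed genes of each list (number in brackets) of log2(CPM + 0.5) minus the gene's mean over the 3 WT libraries, with 1 symbol a library. The squares of replicate 2 lie right of zero for paraxial, streak and epiblast genes and left of zero for blood, endothelial and HOX genes, and the triangles of replicate 3 lie far left for the histone cluster genes and the small and nuclear RNAs.

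Replicate 3 also differed by kind of transcript. Each of the 10 genes with the largest SD of log2 was lowest in replicate 3. AC115697.1 had 469, 648 and 8.72 CPM. Hist1h1e, a linker histone gene, had 25.2, 58.5 and 0.680 CPM. The others were AY036118, Gm12913, Il1rapl1, Hist1h3e, AC113316.1, Gm15564, Gm15662 and Hist2h2bb. The mRNAs of replication-dependent histone genes end in a stem-loop and carry no poly(A) tail. All 31 listed genes of these clusters, a list chosen after the values were seen, were lowest in replicate 3, against 40.2% of all genes. The ratio of replicate 3 to the mean of replicates 1 and 2 had a median of 0.0586 over these genes. For the 8 replacement histone genes, whose mRNAs carry tails, the median ratio was 1.06. H2afz, encoding the variant H2A.Z, had 139, 125 and 164 CPM. H3f3b, encoding the variant H3.3, had 456, 517 and 473 CPM.

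Another 6 small and nuclear RNAs, also picked with their values in view, were examined. Rn7sk, the 7SK RNA that holds back transcription elongation, had 25.3, 25.7 and 1.60 CPM. Malat1, a long nuclear RNA, had 823, 828 and 161 CPM. Rmrp, the RNA of the enzyme RNase MRP, had 9.68, 15.8 and 1.58 CPM. Rpph1, the RNA of RNase P, had 3.56, 4.42 and 1.99 CPM. Neat1, the RNA of paraspeckles, had 4.77, 4.70 and 2.02 CPM. All 6 of these RNAs were lowest in replicate 3, less so for Rpph1 and Neat1, and their median ratio was 0.160. The microRNA gene Mir675 was not low in replicate 3, with 112, 62.7 and 137 CPM. Overlapping genes could hold 57.2% of its value, so that its level cannot be read as that of a short RNA. Ribosomal protein genes (-0.11, -0.07 and 0.18 in replicates 1, 2 and 3) and nuclear respiratory chain genes (-0.11, -0.04 and 0.17) were slightly higher in that library. DNA replication genes had -0.05, -0.06 and 0.11. The labels give total RNA for each library. How RNA was selected for sequencing is not given in the sources used here, and its part in the result was not tested.

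**Figure D5:**
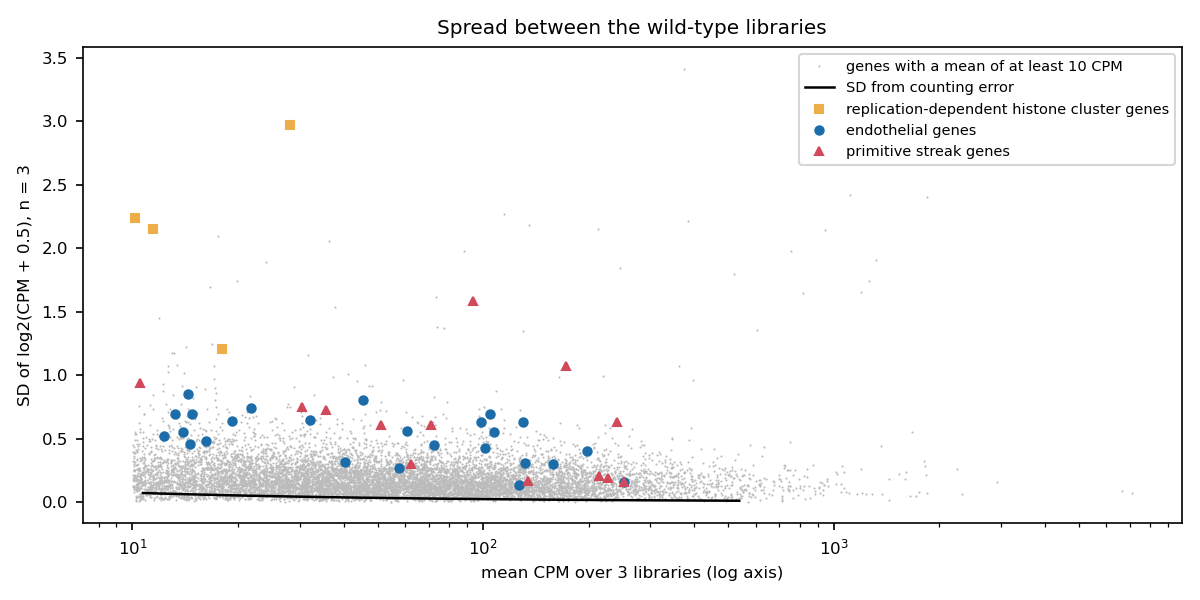
SD of log2(CPM + 0.5) over the 3 WT libraries against the mean CPM (log axis) for genes whose mean reached 10 CPM, with the SD that counting error gives as a black line. Most genes lie under 0.5, 14 of 25 endothelial and 8 of 13 primitive streak genes lie above it, and the 4 histone cluster genes shown lie above 1.

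Some features of the DNA at start sites varied with level. RefSeq windows of 250 bases before to 50 bases after the start (GRCm38.p6) were matched by symbol to 9607 of 13924 distinct symbols. The first window of each gene was used, motifs were searched on both strands, and genes were split by CPM per kb into 5 groups of equal size. From the lowest to the highest group, the median CpG ratio was 0.629, 0.741, 0.794, 0.813 and 0.850. The share of windows with the ETS core CCGGAA was 16.3%, 26.5%, 29.9%, 33.4% and 34.7% in the same order. Both were higher with each step in level, and the share with CCGGAA among all 27025 genes of the RefSeq table was 15.2%. A motif that contains CG is more frequent in CpG-rich windows, and these features were not separated. The E-box CANNTG, to which SCL and its E-protein partners bind, went the other way. It was held by 68.6% of windows in the lowest group and 58.8% in the highest, with 72.1% in all windows.

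The GC box GGGCGG was held by 56.5%, 66.4%, 68.3%, 70.0% and 69.5% of windows from the lowest to the highest group. The TATA box TATAAA was held by 8.17%, 6.19%, 6.61%, 4.01% and 6.82%, against 14.2% of all windows in the RefSeq table. The CCAAT box CCAAT was held by 37.6%, 39.6%, 37.5%, 37.9% and 41.7%, against 37.9%. The GATA motif AGATAA was held by 6.45%, 6.77%, 5.15%, 5.47% and 5.41%, against 11.4%. None of the last 3 motifs changed steadily with level. By list, CCGGAA was found in 48.5% of 33 windows of DNA replication genes and 47.5% of 59 of ribosomal protein genes, against 28.2% of all matched genes. It was in none of the 16 windows of endothelial genes, nor in the 18 of primitive streak, 15 of Notch, 11 of HOX and CDX, 11 of PRC2 genes and 10 of X- and Y-linked genes. The median CpG ratio was 0.336 for the endothelial genes. It was 0.815 for 17 blood transcription factor genes and 1.02 for 11 genes of SCL partners.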

How the data were processed

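RNA of FLK1+ cells from day 3.5 EBs was sequenced in 6 libraries, of which the 3 labelled WT were used, and no genotypes were compared. The authors aligned reads to mm9 with TopHat2 2.0.8b, removed duplicate read pairs, which can lower the values of high and of short genes, filtered on mapping quality with SAMtools 0.1.19 and deposited CPM values after TMM scaling in edgeR. The counting tool and annotation are not given in the sources used here.

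All 14005 identifiers matched GENCODE vM1 (mm9), which gave positions and the union of exons, long for genes with many isoforms. Where rows shared a symbol, the lowest identifier was used. The counts of a library came from the step of which all its values were whole multiples (within 0.001 of a read). The share that overlapping genes could hold is the sum of their CPM times the part of their exons within the gene's span. No test was run, since 1 group was described. The members and the 47 lists (907 of 1117 genes listed) were chosen with earlier results of these data known. Named genes are the markers, preset lead genes, highest and lowest genes of each list, family members, the 10 highest genes and those of largest and smallest spread. Eif2s3x, Eif2s3y, Fgf3, Foxf1, Gfi1b, H2afz, Hand2, Lyl1, Ptma, Rmrp, Rn7sk, Rpph1, Uty and Zfpm1, and the histone and small RNA lists, were picked with their values in view. Some named genes are not reported here. Calculations were tested on simulated data. Python 3.11.15, NumPy 2.4.6, SciPy 1.17.1, pandas 2.3.3 and Matplotlib 3.10.9 were used.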

Additional observations from a re-analysis of the deposited data

How the results depend on the processing

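The number of lists whose median lay at or above percentile 80 was 12. It ran from 11 to 12 with a library left out, was 11 with the longest transcript as length and 13 in CPM, and stayed at 12 under the other settings. Single lists moved more. From CPM per kb to CPM, the percentile of the median went from 91.3 to 70.2 for respiratory chain genes, from 64.4 to 85.0 for T-box genes, from 57.3 to 38.8 for endoderm genes and from 40.7 to 59.6 for cadherins and integrins. Without genes of much overlap, a setting added after seeing the data, Notch genes went from 56.5 to 37.99 and endothelial genes from 47.4 to 41.7. Genes of at least 100 CPM numbered 2807, and 2804 to 2818 with a library left out. The count of genes with an SD above 0.5 was 355 as reported, 806 when the minimum mean was 1 CPM and 814 without a minimum, since these settings add genes of low counts. With a library left out it ran from 240 (without WT replicate 2) to 778 (without WT replicate 1). With pseudocounts of 0.1 and 1 it was 375 and 326, after rescaling to equal sums 341, and without genes of much overlap 285. The share of TATAAA in the highest group was 6.82% by CPM per kb and 6.14% by CPM. No paired analysis was possible because 1 group was described and no result comes from a test. At a few CPM, orders between genes are not resolved.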

Other observations

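Imprinted genes, expressed from 1 parental allele, stood high in these libraries. Of them 24 of 29 were listed, with a median of 20.9 CPM per kb (percentile 72.0). The long RNA H19 had 1821, 1043 and 2171 CPM. Its neighbour Igf2, a growth factor gene, had 1701, 942 and 1466 CPM. Both were lowest in replicate 2, and the per kb ratio of H19 to Igf2 was 2.48, 2.56 and 3.43. Grb10, an adaptor that restrains growth factor receptors, had 679, 576 and 601 CPM. Meg3 and Dlk1 lie in 1 imprinted region and are expressed from opposite parental alleles. Meg3 had 59.7, 71.1 and 27.5 CPM and was lowest in replicate 3. Dlk1 had 74.9, 36.7 and 89.5 CPM and was lowest in replicate 2. Rtl1, of the same region, was the lowest of the list with 2.91, 2.40 and 1.72 CPM.

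Immediate early genes, which respond quickly to handling and to growth factors, varied in another way. Fos had 253, 97.7 and 38.7 CPM. Jun had 371, 194 and 93.1 CPM. Atf3 had 50.6, 30.8 and 25.2 CPM. Each was highest in replicate 1 and lowest in replicate 3. Egr1 had 89.6, 118 and 78.9 CPM and Junb 85.4, 121 and 96.3 CPM, both highest in replicate 2. Ier2, the highest gene of the list, had 155, 133 and 199 CPM. Klf4, a pluripotency factor that is also inducible, had 56.0, 51.7 and 15.7 CPM and was low in replicate 3. The median over the 17 listed members, of log2(CPM + 0.5) minus the gene's mean, was -0.01, 0.13 and -0.25 in replicates 1, 2 and 3.

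Genes of the Y chromosome stood below their X-linked partners, by amounts that differed between pairs. Kdm5d, on the Y, had 0.502, 1.18 and 0.728 CPM and Kdm5c, on the X, 235, 219.6 and 224 CPM. The per kb ratio of Kdm5c to Kdm5d was 362, 144 and 238. Ddx3y had 11.5, 15.4 and 11.8 CPM and Ddx3x 913, 1030.4 and 839.9 CPM, a per kb ratio of X to Y of 69.7, 59.0 and 62.5. Eif2s3x stood at 90.9 ± 2.21 CPM per kb and its partner Eif2s3y at 5.004 ± 0.686 CPM per kb. Kdm6a stood at 9.10 ± 1.17 CPM per kb and its partner Uty at 1.58 ± 0.335 CPM per kb. Reads of such similar pairs are split by the alignment in a way that was not tested. Xist, the RNA of the inactive X, was low in each library with 3.19, 2.20 and 1.17 CPM, and the overlapping genes reached 77.0% of that value.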
